A study of Homo sapiens with 6 samples.

Results

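The HOX genes encode homeodomain transcription factors and lie in 4 clusters, HOXA to HOXD. The genes described here were all rows of the authors' gene table marked as protein coding and named HOXA, HOXB, HOXC or HOXD with a number, which gave 39 of 58735 genes. All 39 had at least 1 read in the 6 libraries together, and 32 of them had a mean of at least 1 FPKM (fragments per kilobase of gene length, scaled to a library total). RNA came from HEK293, an established cell line of human embryonic kidney origin, in stable lines making tensin 2, a focal adhesion protein, with glutamate (Y483E) or phenylalanine (Y483F) in place of a tyrosine. Each line had 3 libraries, called replicates 1, 2 and 3. The submitters' own descriptions number the same libraries 1, 4 and 5 within each line. The labels name no untreated or wild-type line, no promoter for the construct and no loss of the cells' own tensin 2, and do not say whether a line grew from 1 clone. The 3 libraries of a line are labelled biological replicates, but the labels do not tell whether they were separate cultures, so the spread between them may be partly technical.

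HOX proteins bind DNA through the homeodomain, usually together with TALE homeodomain cofactors of the PBX and MEIS families, and give cells a position along the body axis. Genes with the same number in different clusters descend from 1 ancestral gene and are called paralogs, and low-numbered genes act towards the head and high-numbered ones towards the tail. Polycomb complexes keep HOX genes silent, MLL-type complexes keep them active, and cultured cells often keep the HOX pattern of the tissue they came from. In mouse, the paralogs numbered 11 are needed for the kidney to form.

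Library totals ran from 17919298 to 23284592 reads in Y483E and from 17204498 to 20274593 reads in Y483F, and the HOX genes took 20164 to 26724 reads in Y483E libraries and 19108 to 23581 reads in Y483F libraries. Mitochondrial genes held 2.11%, 2.15% and 1.23% of reads in Y483E and 2.05%, 3.27% and 3.11% in Y483F. The HEK293 marker genes fixed for this work summed to 175 to 200 FPKM in Y483E and 168 to 173 FPKM in Y483F, with 4 of 7 at a mean of at least 1 FPKM. These 4 all had higher values in Y483E, against 52.8% of all genes at that level. For 2 of the 4 the lines did not overlap, against 17.1% of all such genes. Markers of fibroblasts, endothelium, blood, liver and skin keratinocytes summed to at most 1.3 FPKM per list in any Y483E library and 1.42 FPKM in any Y483F library. COL1A2, PTPRC, HBB, CD3E, APOB, SERPINA1, IVL and KRT14 had no read in any library.

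The homeobox, the 180-base stretch that codes for the homeodomain, is shown for 3 of the paralogs numbered 9. The 4 genes with that number together held 28.5% of the summed HOX FPKM. Sequences come from GENCODE 29 on GRCh38, read 5′ to 3′ along the coding strand, and capitals mark bases 142 to 159, which code for part of the third helix, the helix that reads the major groove of DNA. HOXB9 lies at chr17:48622921-48623100 on the minus strand, HOXC9 at chr12:54002465-54002644 on the plus strand and HOXD9 at chr2:176123969-176124148 on the plus strand.
HOXB9: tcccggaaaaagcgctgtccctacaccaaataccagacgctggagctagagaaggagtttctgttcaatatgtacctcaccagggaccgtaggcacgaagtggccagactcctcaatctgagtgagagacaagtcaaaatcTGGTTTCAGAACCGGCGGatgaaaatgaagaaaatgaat
HOXC9: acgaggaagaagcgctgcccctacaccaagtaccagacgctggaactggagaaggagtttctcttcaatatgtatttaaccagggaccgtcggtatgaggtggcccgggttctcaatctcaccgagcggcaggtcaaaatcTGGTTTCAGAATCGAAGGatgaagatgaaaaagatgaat
HOXD9: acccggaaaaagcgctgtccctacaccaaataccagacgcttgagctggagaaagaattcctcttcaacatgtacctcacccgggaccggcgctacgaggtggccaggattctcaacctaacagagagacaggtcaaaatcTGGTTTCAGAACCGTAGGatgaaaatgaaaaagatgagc

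Among these 3 homeoboxes the pairs were identical at 148 to 152 of 180 bases. The longest stretch without a difference was 40 bases, between HOXB9 and HOXD9. Over all 39 genes, the 42 pairs that share a paralog number had a median identity of 81.7% (range 69.4 to 90.6). The 172 other pairs within a cluster had a median of 61.4% (range 47.8 to 91.1) and the 527 remaining pairs 60% (range 47.8 to 85.6). The ranges thus overlapped, and the highest identity, 91.1%, was between the neighbours HOXA6 and HOXA7. The longest identical stretch of any pair was 51 bases. The labels and headers do not say how the authors' counting treated reads with several matches.

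**Figure D1:**
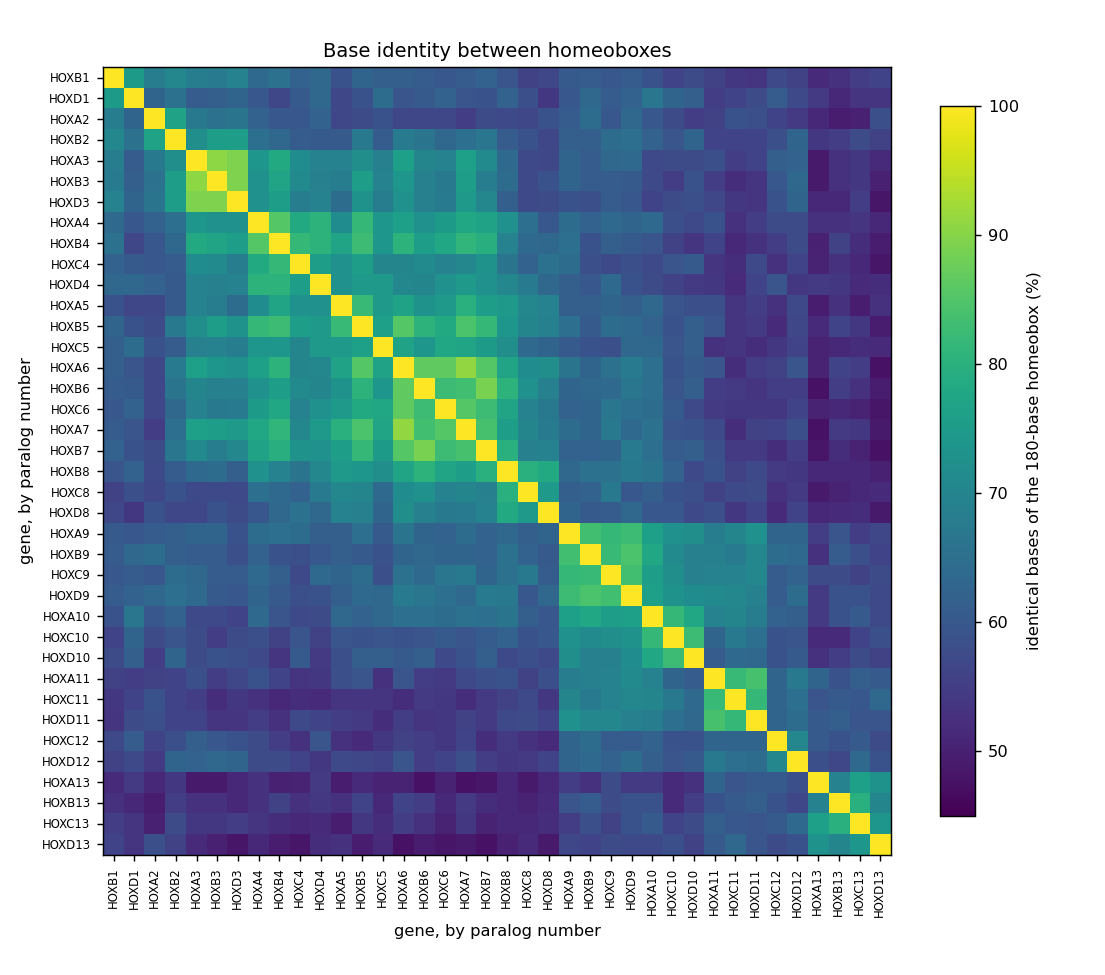
Base identity (percent, colour scale) between the 180-base homeoboxes of pairs of HOX genes, ordered by paralog number on both axes. The blocks along the diagonal are pairs with the same paralog number, whose median identity over all 39 genes was 81.7%. Some pairs with different numbers are as bright, such as HOXA6 with HOXA7 (91.1%).

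All 11 HOXA genes, 9 of 10 HOXB genes, 7 of 9 HOXC genes and 5 of 9 HOXD genes had a mean of at least 1 FPKM. As a share of all HOX genes this was 82.1%, against 54.8% of the 19951 protein-coding genes, and 9 HOX genes (23.1%) reached 20 FPKM, against 12% of protein-coding genes. The summed HOX level was 443 ± 5.87 FPKM in Y483E and 445 ± 14.3 FPKM in Y483F (SD, n = 3 each). The HOXA genes held 34.0 ± 2.43% of that sum in Y483E and 34.3 ± 0.927% in Y483F, and the HOXB genes 30.2 ± 1.95% in Y483E and 28.8 ± 0.832% in Y483F. The HOXC genes held 18.4 ± 0.850% in Y483E and 18.9 ± 0.302% in Y483F, and the HOXD genes 17.4 ± 0.452% in Y483E and 18 ± 0.873% in Y483F (SD, n = 3 each). The share of each cluster overlapped between the lines. After the paralogs numbered 9, those numbered 10 held 12.6%, those numbered 13 held 11.2%, those numbered 5 held 9.70% and those numbered 12 held 0.0605% of the sum over the 6 libraries.

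**Figure D2:**
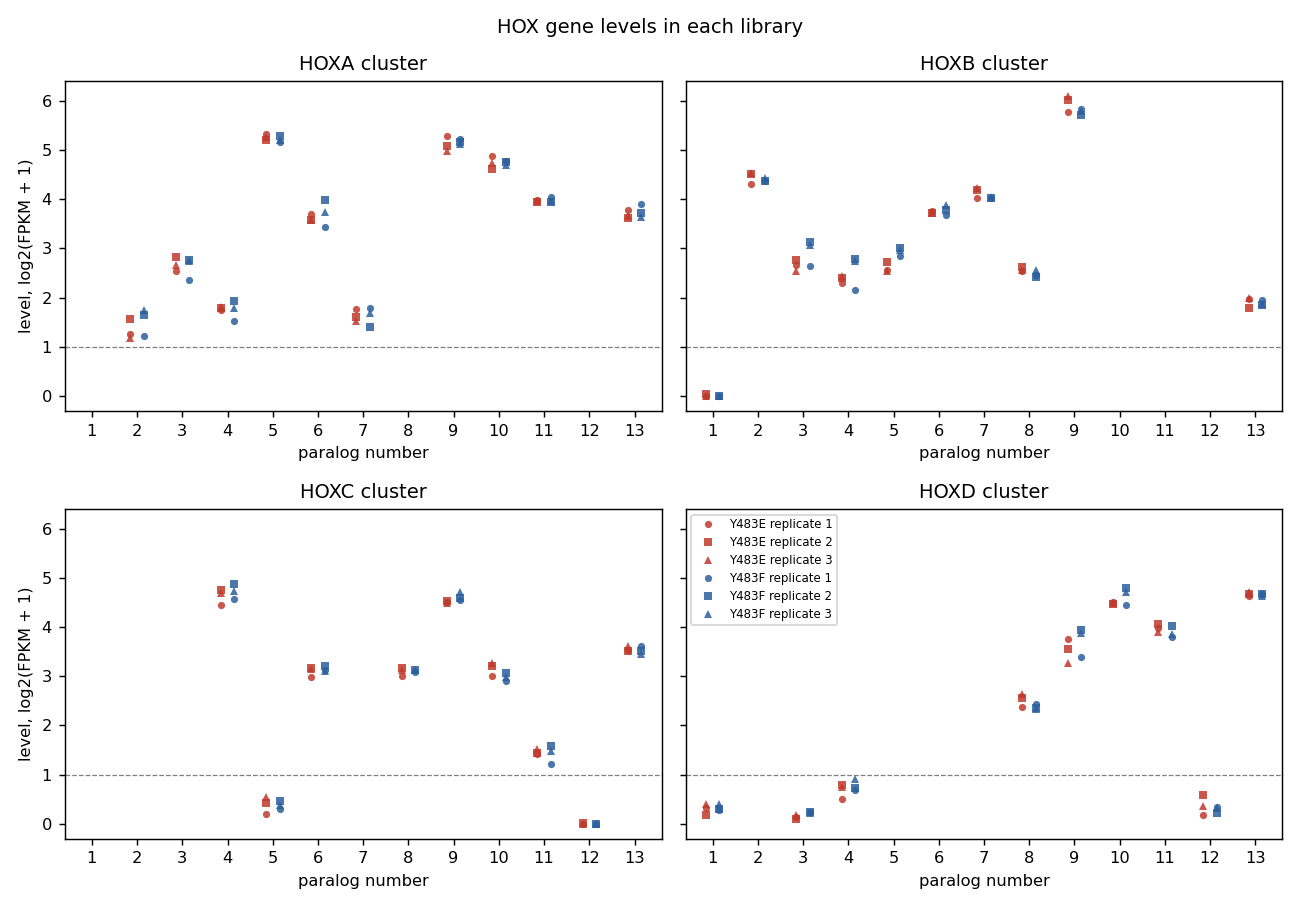
Level of the HOX genes in each library, as log2(FPKM + 1), by cluster (panels) and paralog number (horizontal axis), with Y483E in red to the left and Y483F in blue to the right. The dashed line is at 1 FPKM; HOXB9 was highest, and in the HOXD cluster the genes numbered 1, 3, 4 and 12 lay below it.

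Ordered by mean level over the 6 libraries, HOXB9 stood first at 57.8 FPKM, and its lowest library (51.7 FPKM) was above the highest of any other HOX gene. HOXA5 (36.9 FPKM) and HOXA9 (34.5 FPKM) followed and overlapped each other, and both lay above the next group. That group held HOXA10 (25.8 FPKM), HOXC4 (24.7), HOXD13 (24.3), HOXD10 (22.8), HOXC9 (22.6) and HOXB2 (20.4), each overlapping its neighbour. A gap separated HOXB2 from the genes between HOXB7 (16.1 FPKM) and HOXC13 (10.6 FPKM), another lay below HOXC13, and another above HOXB13 (2.75 FPKM). HOXC11, at 1.72 FPKM, was the last gene above 1 FPKM, and all of its libraries lay above those of HOXD4.

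In the HOXA cluster, which spans chr7:27092993-27200106 on the minus strand of the authors' coordinates, HOXA2 to HOXA4 and HOXA7 were low and HOXA5, HOXA6 and HOXA9 to HOXA13 were higher. HOXA2, which patterns the second pharyngeal arch, had 1.41, 1.97 and 1.28 FPKM in Y483E and 1.33, 2.13 and 2.38 FPKM in Y483F. HOXA3, needed in mouse for the thymus and parathyroid, had 4.83, 6.10 and 5.34 FPKM in Y483E and 4.16, 5.83 and 5.74 FPKM in Y483F. The lines overlapped for both, and Y483F replicate 1 was the lowest library for HOXA3. HOXA4 had 2.37, 2.48 and 2.52 FPKM in Y483E and 1.87, 2.80 and 2.48 FPKM in Y483F. HOXA5, which in mouse is needed for lung development, had 39.2, 36.1 and 37.4 FPKM in Y483E and 34.7, 37.9 and 35.9 FPKM in Y483F. HOXA6 had 11.9, 11.0 and 10.9 FPKM in Y483E and 9.81, 14.9 and 12.4 FPKM in Y483F. The level of HOXA5 was thus above that of both its neighbours in every library, and Y483F replicate 1 was the lowest library for all 3 genes.

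HOXA7 had 2.41, 2.03 and 1.87 FPKM in Y483E and 2.45, 1.64 and 2.20 FPKM in Y483F, below HOXA6 and HOXA9 in every library. HOXA9, a driver of acute myeloid leukaemia when overexpressed, had 38.3, 32.9 and 30.7 FPKM in Y483E and 36.4, 34.9 and 33.8 FPKM in Y483F. HOXA10, which acts in uterus development and implantation, had 28.5, 23.5 and 25.5 FPKM in Y483E and 26.5, 26.1 and 24.9 FPKM in Y483F. Both genes were highest in Y483E replicate 1, and the lines overlapped. HOXA11, one of the paralogs needed for the mouse kidney, had 14.9, 14.3 and 14.7 FPKM in Y483E and 15.6, 14.3 and 14.7 FPKM in Y483F. HOXA13, whose mutation causes hand-foot-genital syndrome, had 12.8, 11.2 and 11.6 FPKM in Y483E and 14, 12.2 and 11.4 FPKM in Y483F. The libraries of the 2 lines were interleaved for both genes. Of the exon bases of HOXA7, 62.5% lie opposite HOXA-AS3, as do 39.3% of those of HOXA6, and of those of HOXA11, 31.1% lie opposite HOXA11-AS. For HOXA3, HOXA4, HOXA9 and HOXA10, 13.9% to 16.4% lie opposite antisense genes. Whether the libraries kept the strand is not stated, so reads of such partners cannot be told apart. HOXA4 also shares 31.0% of its exon bases with AC004080.6 on its own strand.

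In the HOXB cluster, at chr17:48528526-48729178 on the minus strand, every gene except HOXB1 was above 1 FPKM. HOXB1, which specifies hindbrain segments, had 2 reads in all, both in Y483E replicate 2. HOXB2, which acts beside it in the hindbrain, had 18.7, 21.7 and 22.0 FPKM in Y483E and 19.6, 19.8 and 20.6 FPKM in Y483F, with Y483E libraries at both ends of the range. HOXB3 had 5.30, 5.82 and 4.86 FPKM in Y483E and 5.29, 7.74 and 7.42 FPKM in Y483F. HOXB4, which expands blood stem cells when overexpressed, had 3.88, 4.29 and 4.46 FPKM in Y483E and 3.45, 5.90 and 5.73 FPKM in Y483F. HOXB5, which acts in the enteric nervous system, had 4.88, 5.65 and 4.84 FPKM in Y483E and 6.21, 7.08 and 6.81 FPKM in Y483F. For HOXB3 and HOXB4, Y483F replicates 2 and 3 lay above all other libraries and Y483F replicate 1 did not. For HOXB5, all 3 Y483E libraries lay below all 3 Y483F libraries.

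HOXB6 had 12.6, 12.2 and 12.3 FPKM in Y483E and 11.9, 12.7 and 13.8 FPKM in Y483F. HOXB7 had 15.3, 17.3 and 17.8 FPKM in Y483E and 15.3, 15.4 and 15.6 FPKM in Y483F. HOXB8, whose loss in mouse causes excessive grooming, had 4.83, 5.12 and 4.92 FPKM in Y483E and 4.47, 4.34 and 4.94 FPKM in Y483F. The lines overlapped for each of these genes, and HOXB7 was higher in Y483E replicates 2 and 3 than in any other library. HOXB9, which acts in the thoracic skeleton in mouse, had 53.8, 63.7 and 67.5 FPKM in Y483E and 55.8, 51.7 and 54.1 FPKM in Y483F, with the same 2 Y483E libraries on top and Y483E replicate 1 among the Y483F values. HOXB13, a prostate transcription factor, had 2.94, 2.46 and 2.99 FPKM in Y483E and 2.85, 2.61 and 2.68 FPKM in Y483F. HOXB3 shares exon bases on its own strand with HOXB4 and HOXB6 (7.94% of its exon bases), so the authors' counting could have moved reads among these 3. HOXB7, HOXB8 and HOXB9 share none with any other annotated gene, and HOXB5 and HOXB6 share 3.58% and 16.3% with HOXB-AS3 on the other strand.

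In the HOXC cluster, at chr12:53938765-54056030 on the plus strand, HOXC4 and HOXC9 were the most abundant. HOXC4 had 20.8, 26.0 and 24.9 FPKM in Y483E and 22.8, 28.2 and 25.4 FPKM in Y483F. HOXC6 had 6.93, 8 and 7.83 FPKM in Y483E and 7.75, 8.29 and 7.66 FPKM in Y483F. HOXC8 had 7.02, 7.99 and 7.73 FPKM in Y483E and 7.54, 7.71 and 7.70 FPKM in Y483F. Y483E replicate 1 was the lowest library for all 3 genes. HOXC9, which in mouse sets the thoracic identity of motor neurons, had 21.8, 21.9 and 21.4 FPKM in Y483E and 22.3, 23.1 and 25.3 FPKM in Y483F, and the lines did not overlap. HOXC10 had 7.03, 8.24 and 8.66 FPKM in Y483E and 6.46, 7.32 and 6.96 FPKM in Y483F. HOXC11 had 1.66, 1.71 and 1.86 FPKM in Y483E and 1.31, 2.01 and 1.78 FPKM in Y483F, well below its paralogs HOXA11 and HOXD11 in every library. HOXC13, which acts in hair and nail, had 10.5, 10.3 and 11.2 FPKM in Y483E and 11.2, 10.3 and 9.94 FPKM in Y483F.

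HOXC5 had 0.313 ± 0.149 FPKM in Y483E and 0.298 ± 0.0716 FPKM in Y483F (SD, n = 3 each), from 64 reads in all, although both its neighbours were above 6 FPKM in every library. Of its exon bases, 59.9% are also annotated to other genes on the same strand, and how the authors' counting assigned such reads is not stated. For HOXC4 and HOXC6 the same shares are 17.8% and 15.7%. HOXC12 had 1 read in all, in Y483E replicate 2. A count of 3 reads in a library is the floor used here, and neither HOXB1 nor HOXC12 reached it in any library.

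In the HOXD cluster, at chr2:176092891-176190907 on the plus strand, the genes numbered 8 to 11 and 13 were above 1 FPKM and the genes numbered 1, 3, 4 and 12 were not. HOXD8 had 4.15, 4.88 and 5.24 FPKM in Y483E and 4.44, 4.08 and 4.02 FPKM in Y483F. HOXD9 had 12.6, 10.7 and 8.62 FPKM in Y483E and 9.49, 14.4 and 13.7 FPKM in Y483F. HOXD10, which acts in motor neurons of the lumbar spinal cord in mouse, had 21.6, 21.0 and 21.3 FPKM in Y483E and 20.9, 26.7 and 25.0 FPKM in Y483F. For HOXD9 and HOXD10, Y483F replicates 2 and 3 were the highest libraries, whereas Y483F replicate 1 was below Y483E replicate 1. HOXD11, a further kidney paralog in mouse, had 14.8, 15.7 and 13.8 FPKM in Y483E and 12.9, 15.2 and 13.4 FPKM in Y483F. HOXD13, whose mutation causes synpolydactyly, had 23.7, 24.3 and 25.2 FPKM in Y483E and 24.4, 24.6 and 23.6 FPKM in Y483F, a narrow range that the lines shared.

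HOXD12, between HOXD11 and HOXD13, averaged 0.306 ± 0.194 FPKM in Y483E and 0.227 ± 0.0536 FPKM in Y483F (SD, n = 3 each), from 43 reads. HOXD4 averaged 0.607 ± 0.165 FPKM in Y483E and 0.706 ± 0.147 FPKM in Y483F, and HOXD1 0.238 ± 0.101 FPKM in Y483E and 0.252 ± 0.0627 FPKM in Y483F. HOXD3 averaged 0.102 ± 0.0331 FPKM in Y483E and 0.173 ± 0.00744 FPKM in Y483F, and all its Y483E libraries were below all its Y483F libraries, at 55 reads in all. Of the exon bases of HOXD4 and HOXD3, 80.5% and 62.2% are shared with AC009336.2 on the same strand, a gene listed at 0.471 ± 0.158 FPKM in Y483E and 0.671 ± 0.210 FPKM in Y483F. How reads in the shared bases were assigned is not stated. The same holds for HOXD10 and HOXD11, which share 16.8% and 21.4% of their exon bases with each other on the same strand. Of the exon bases of HOXD1, 58.1% lie opposite AC009336.3 and HAGLR on the other strand. HOXD12 and HOXD13 share no exon base with another gene.

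The promoters of these adjacent genes are given because their levels lie far apart in every library. Each runs from 250 bases before to 50 bases after the start in RefSeq on GRCh38.p14, on the plus strand, with CG dinucleotides in capitals. HOXD13 is at chr2:176092471-176092770 and HOXD12 at chr2:176099545-176099844.
HOXD13: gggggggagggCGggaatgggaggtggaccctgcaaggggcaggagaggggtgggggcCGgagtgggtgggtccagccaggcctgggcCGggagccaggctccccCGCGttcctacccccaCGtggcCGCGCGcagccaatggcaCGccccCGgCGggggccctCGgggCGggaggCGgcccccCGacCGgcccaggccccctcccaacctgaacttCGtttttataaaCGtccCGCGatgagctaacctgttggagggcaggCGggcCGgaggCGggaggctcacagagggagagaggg
HOXD12: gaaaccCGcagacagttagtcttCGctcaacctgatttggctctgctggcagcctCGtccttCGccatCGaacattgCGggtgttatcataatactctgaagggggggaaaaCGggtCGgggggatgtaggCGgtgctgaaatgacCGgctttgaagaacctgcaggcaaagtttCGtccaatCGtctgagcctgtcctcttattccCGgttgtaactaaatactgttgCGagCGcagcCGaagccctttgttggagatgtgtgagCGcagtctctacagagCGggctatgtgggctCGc

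The HOXD13 window was 74.0% G or C with 24 CG dinucleotides and held the motif TATAAA, and the HOXD12 window was 54.3% G or C with 19 CG dinucleotides and did not. The promoter table held 20 of the 39 HOX genes, and HOXC4 and HOXC5 had the same window. All were HOXA or HOXD genes except HOXB1, HOXC4 and HOXC5, so the shares below hardly cover the HOXB and HOXC clusters. Searched on both strands, CCAAT was present in 17 of the 20 windows (85%), against 35.7% of all 27305 promoters in the table. TATAAA was present in 4 of the 20 (20%), against 12% of all promoters. The sequence AGGTCA, a half-site of nuclear receptors that include the retinoic acid receptors, was found in none of the 20, against 13.9% of all. The HOX windows had a median of 22.5 CG dinucleotides, against 14 in all promoters, at a similar median G or C content of 58.0% and 58.3%. A match is a string of letters and not a measured binding site.

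The comparison of Y483E with Y483F asked which transcripts differ between cells with a phosphate-mimicking and a non-phosphorylatable residue at that position of tensin 2. No HOX gene passed the test over all 6 libraries. With limma on log2(FPKM + 1) and Benjamini-Hochberg adjustment over the 12833 genes that averaged 1 FPKM or more, 0 of 32 HOX genes and 0.0% of all genes had an adjusted p under 0.05. At an unadjusted p under 0.05 there was 1 HOX gene of 32, against 12.2% of all genes. Of the 32 HOX genes, 15 had higher and 17 lower values in Y483E, and 52.8% of all genes tested were higher. The median log2 fold change of the HOX genes was -0.0077 on the log2(FPKM + 1) scale, against 0.0070 for all genes, and the HOX values ran from -0.33 to 0.19.

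HOXB5 was the gene with the unadjusted p under 0.05 in limma. It averaged 5.12 ± 0.459 FPKM in Y483E and 6.70 ± 0.447 FPKM in Y483F (SD, n = 3 each), a log2 fold change of -0.33 ± 0.07 (SE) with a limma adjusted p of 0.257, and it was lower in all 3 Y483E libraries. HOXB5 and HOXC9 were the 2 of 32 HOX genes whose lines did not overlap, and 17.1% of all genes tested did not overlap. HOXC9 averaged 21.7 ± 0.289 FPKM in Y483E and 23.5 ± 1.55 FPKM in Y483F, a log2 fold change of -0.11 ± 0.05 (SE) with a limma adjusted p of 0.453. With 3 libraries a line, an exact two-sided permutation test of a single gene cannot go below 0.1.

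HOXA5, the most abundant paralog of HOXB5, was above it in every library, at 37.6 ± 1.58 FPKM in Y483E and 36.2 ± 1.61 FPKM in Y483F (SD, n = 3 each), and had a log2 fold change of 0.05 ± 0.05 (SE, limma adjusted p = 0.698). The difference between the lines was thus -0.33 for HOXB5 and 0.05 for HOXA5 on the same log2 scale, and that contrast was not tested.

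Reads recovered from the FPKM values were tested with edgeR's quasi-likelihood test. Of 35 HOX genes tested there, 0 passed an adjusted p of 0.05, against 7 of 15992 genes (0.0438%), and 4 had an unadjusted p under 0.05, against 13.4% of all genes. These were HOXB3 at -0.36 ± 0.13 (SE, edgeR adjusted p = 0.254), HOXB5 at -0.39 ± 0.11 (adjusted p = 0.209), HOXB9 at 0.19 ± 0.07 (adjusted p = 0.304) and HOXD10 at -0.19 ± 0.08 (adjusted p = 0.347), all log2 fold changes of Y483E over Y483F. The authors' deposited table of 1652 genes with an unadjusted p under 0.05 lists the same 4 HOX genes, with unadjusted p-values of 0.00424 for HOXB3, 0.00862 for HOXB5, 0.0150 for HOXB9 and 0.0457 for HOXD10. The adjusted p-values in the authors' deposited table were between 0.154 and 0.429 for the 4 genes. DESeq2 on the recovered reads called no HOX gene, against 1.27% of the 11241 genes that it gave an adjusted p. The authors' table was made from the same reads and is not independent of the values here.

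Along the HOXB cluster the log2 fold changes had both signs. HOXB3, HOXB4 and HOXB5 were at -0.29, -0.18 and -0.33, HOXB6 at -0.04, and HOXB7, HOXB8 and HOXB9 at 0.11, 0.10 and 0.19, with HOXB2 at 0.05 and HOXB13 at 0.03. None of these 9 values passed the limma test, and the lowest adjusted p among them was 0.257. The other clusters had median log2 fold changes of -0.02 for 11 HOXA genes, -0.01 for 7 HOXC genes and 0.01 for 5 HOXD genes.

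**Figure D3:**
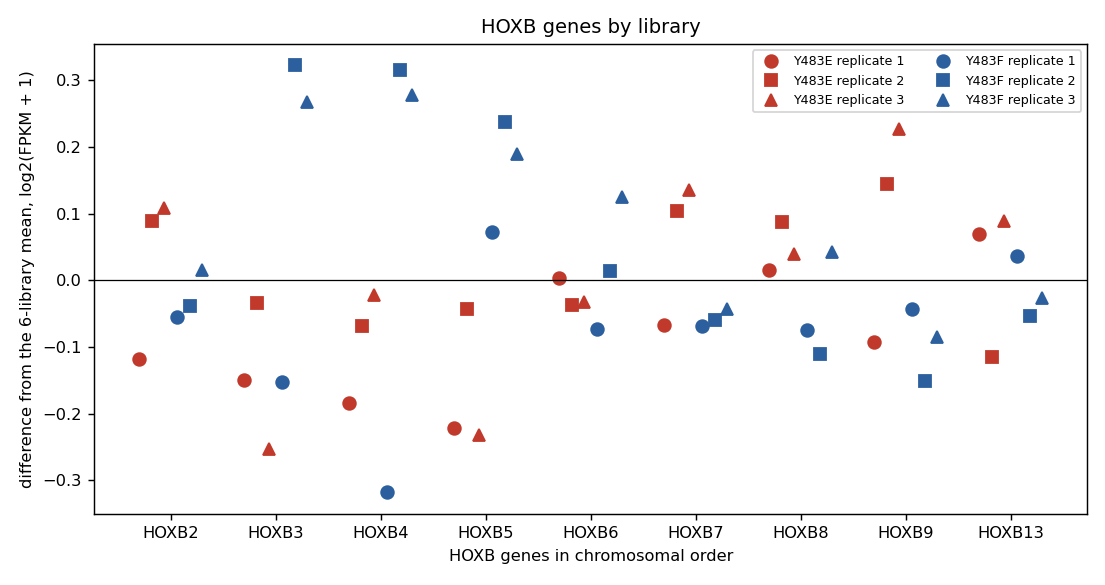
Difference of each library from the 6-library mean for the 9 HOXB genes above 1 FPKM, on the log2(FPKM + 1) scale, in chromosomal order, with Y483E in red left of Y483F in blue and the replicate given by the symbol. Y483F replicates 2 and 3 lie above the other libraries for HOXB3 and HOXB4, and all Y483E libraries lie below all Y483F libraries for HOXB5.

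The libraries of each line are numbered 1, 4 and 5, and those numbered 4 and 5 are replicates 2 and 3. In the libraries numbered 4 and 5 alone, limma called 3 of 32 HOX genes, against 5.71% of all genes tested. HOXB9 had a log2 fold change of 0.30 there (limma adjusted p = 0.0362), HOXB4 -0.34 (adjusted p = 0.0417) and HOXD10 -0.27 (adjusted p = 0.0405). In the libraries numbered 1, with 1 library a line and hence no error, the differences on the same scale were -0.05 for HOXB9, 0.13 for HOXB4 and 0.05 for HOXD10. With edgeR on the libraries numbered 4 and 5, 6 of 36 HOX genes passed, against 15.0% of all genes: HOXB9 was higher in Y483E (log2 fold change 0.30, adjusted p = 0.000251), and HOXB3 (-0.50, adjusted p = 0.000607), HOXB4 (-0.41, adjusted p = 0.00741), HOXB5 (-0.40, adjusted p = 0.0319), HOXD9 (-0.54, adjusted p = 0.00268) and HOXD10 (-0.29, adjusted p = 0.00277) were lower. The share of HOX genes called by edgeR was close to that of all genes. Both fits rest on 2 libraries a line. With the same edgeR test over all 6 libraries, 0 of 35 HOX genes and 0.0438% of all genes passed. The difference between the library numbers was also fitted, a choice made after the data were seen, with 1 library a line under the number 1 and all of the residual spread taken from the libraries numbered 4 and 5, which takes the same spread for replicate 1 of each line. In that fit limma called no HOX gene, against 0.0623% of all genes, with a lowest adjusted p of 0.209, and edgeR called HOXB9 and HOXD9, against 2.3% of all genes.

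The share of mitochondrial reads also differed between the lines in these libraries, at 2.15% and 1.23% in Y483E and 3.27% and 3.11% in Y483F, against 2.11% in Y483E and 2.05% in Y483F for replicates 1. Its part in the results was not tested. Y483F replicate 2 was the highest library for 10 of the 32 HOX genes, against 18.2% of all genes, and Y483F replicate 1 the lowest for 11 of them, against 15.7% of all genes.

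**Figure D4:**
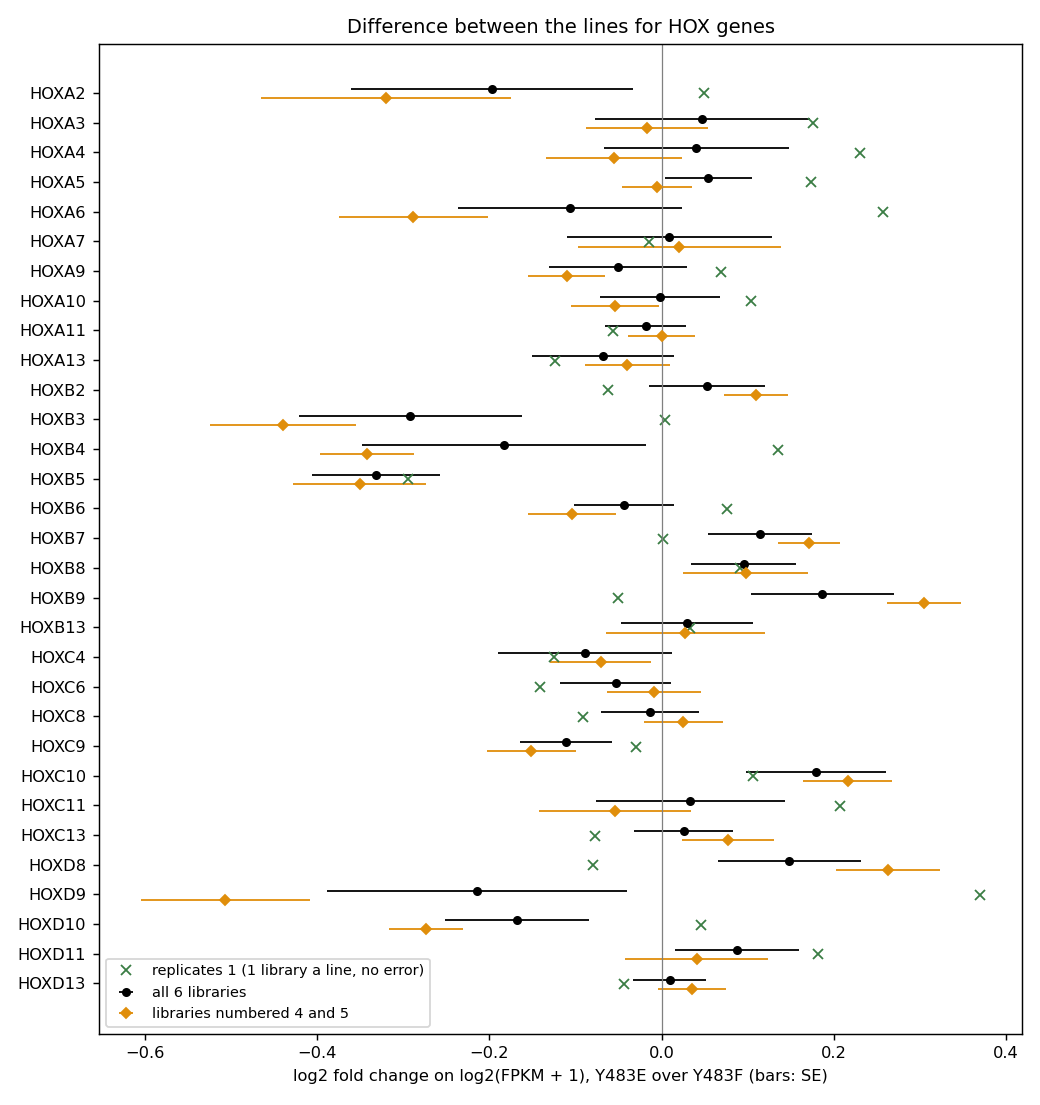
Log2 fold change of Y483E over Y483F on the log2(FPKM + 1) scale for HOX genes above 1 FPKM, by cluster and paralog number, from all 6 libraries (black circles) and from the libraries numbered 4 and 5 (orange diamonds), with bars of 1 SE, and the difference between the 2 replicates 1 (green crosses, no error). HOXB3, HOXB4, HOXD9 and HOXD10 lie further below 0 in the libraries numbered 4 and 5 than in all 6, and HOXB5 is below 0 in each.

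Leaving out single libraries changed the edgeR calls. Without Y483F replicate 1, 4 HOX genes were called, HOXB3, HOXB4, HOXB5 and HOXD10, all lower in Y483E, against 6.1% of all genes, and without Y483E replicate 1 HOXB9 was called as higher, against 1.06% of all genes. With limma, leaving out any single library gave 0 HOX calls. When limma weighted the libraries by their quality, 7 HOX genes were called, against 14.7% of all genes: HOXB9, HOXC10 and HOXD8 were higher in Y483E, and HOXB3, HOXB5, HOXC9 and HOXD10 were lower.

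The HOX clusters also hold 54 genes of other biotypes, of which 21 had a mean of at least 1 FPKM. None of these 21 passed the limma test over all 6 libraries, 9 were higher and 12 lower in Y483E, and 1 had an unadjusted p under 0.05, against 52.8% of all genes higher and 12.2% with an unadjusted p under 0.05. That gene was HOXB-AS3, an antisense gene in the HOXB cluster, which had 8.18, 8.45 and 6.13 FPKM in Y483E and 8.58, 9.33 and 10.5 FPKM in Y483F (log2 fold change -0.29 ± 0.12 SE, limma adjusted p = 0.399). It was the 1 of the 21 without overlap between the lines, against 17.1% of all genes tested. HOTAIR, an antisense RNA of the HOXC cluster known for its binding to Polycomb proteins, had 5.29, 7.68 and 7.51 FPKM in Y483E and 6.19, 6.49 and 6.74 FPKM in Y483F. HOTAIRM1, which lies in the HOXA cluster and acts in myeloid differentiation, had 7.92, 7.48 and 8.56 FPKM in Y483E and 6.95, 7.99 and 7.75 FPKM in Y483F. Both overlapped between the lines. Over the 6 libraries HOXA11-AS had 7.03 to 7.83 FPKM, HOXA10-AS 3.35 to 5.41 FPKM, HOXA-AS3 3.28 to 4.30 FPKM and HOXA-AS2 1.03 to 1.34 FPKM. HOXB-AS1 had 0.731 to 1.57 FPKM, HOXB-AS4 7.36 to 11.5 FPKM, HOXC-AS1 4.63 to 8.07 FPKM and HOXC-AS2 1.77 to 4.09 FPKM. HOXD-AS2 had 4.86 to 10.5 FPKM and HAGLR 3.04 to 3.81 FPKM. Among the genes without a descriptive name, AC004080.2 had 7.67 to 12.8 FPKM, AC103702.2 9.48 to 12 FPKM, AC012531.1 1.02 to 2.20 FPKM, AC012531.3 0.920 to 5.02 FPKM, AC012531.4 0.387 to 4.05 FPKM and AC004080.4 0.830 to 1.77 FPKM. The adjusted p in limma was at least 0.399 for each of the 21. From replicates 2 and 3 alone, edgeR called 3 of 24, HOXB-AS3, AC012531.1 and HOXD-AS2, all lower in Y483E, against 15.0% of all genes.

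The clusters also carry microRNA genes of the miR-196 and miR-10 families, whose known targets include HOX transcripts. The mature sequences are given as RNA from RefSeq, with the seed, bases 2 to 8, in capitals. miR-196a-5p is encoded by MIR196A1 at chr17:48632532-48632553 on the minus strand and by MIR196A2 at chr12:53991762-53991783 on the plus strand, miR-196b-5p by MIR196B at chr7:27169528-27169549 on the minus strand and miR-10a-5p by MIR10A at chr17:48579904-48579926 on the minus strand. The last sequence is a stretch of the HOXB8 transcript, written as DNA, that pairs with miR-196a-5p. Its capitals face the seed.
miR-196a-5p: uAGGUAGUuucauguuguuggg
miR-196b-5p: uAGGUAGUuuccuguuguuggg
miR-10a-5p: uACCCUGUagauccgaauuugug
HOXB8 site: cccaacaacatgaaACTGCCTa

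miR-196a-5p and miR-196b-5p share the seed AGGUAGU. The HOXB8 stretch starts at base 414 when the first base of the stop codon is counted as base 1. It pairs with miR-196a-5p at all 22 bases, 21 of them as Watson-Crick pairs and 1 as a G:U pair. In mouse embryos the microRNA directs cleavage of the Hoxb8 transcript at this stretch. HOXB8 transcript was present at 4.96 ± 0.152 FPKM in Y483E and 4.58 ± 0.315 FPKM in Y483F (SD, n = 3 each). Mature microRNAs are not captured by poly-T selection, and which transcripts the reads at these genes belong to was not tested. MIR196A1 had 80 reads in all, 40 in each line, MIR10B had 24, 19 and 20 in Y483E and 8, 40 and 16 in Y483F, MIR196A2 had 3 in each line, and MIR196B and MIR10A had none.

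Genes that work with HOX proteins or act on the clusters were taken from 8 lists with 99 entries, of which 98 were found in the table under their listed symbol. Means of these genes are given with their SD over 3 libraries a line. No member of any list passed limma or edgeR over all 6 libraries. Of the TALE cofactors, 6 of 9 were tested, 5 higher and 1 lower in Y483E. PBX2 had 32.4, 35.4 and 32.4 FPKM in Y483E and 29.8, 31.4 and 32.4 FPKM in Y483F. PBX3 averaged 6.23 ± 0.496 FPKM in Y483E and 5.78 ± 0.166 FPKM in Y483F, and MEIS3 3.23 ± 0.117 FPKM in Y483E and 2.76 ± 0.544 FPKM in Y483F. MEIS1, a cofactor of HOXA9 in leukaemia, stayed below 1 FPKM in every library.

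Of the Polycomb repressive complex 2 genes, all 11 were tested, 5 higher and 6 lower in Y483E (6 and 5 after quantile normalization). RBBP7, a histone-binding subunit, had 65.7, 76.3 and 75.8 FPKM in Y483E and 64.0, 65.3 and 64.4 FPKM in Y483F (limma adjusted p = 0.368). EZH1, a catalytic subunit, had 4.5, 4.52 and 4.38 FPKM in Y483E and 4.54, 6.04 and 5.64 FPKM in Y483F (limma adjusted p = 0.400). The lines did not overlap for RBBP7, EZH1, PHF19 and MTF2, which were 4 of the 11 members, against 17.1% of all genes tested. In the other lists this held for 1 of 6 TALE cofactors, 2 of 16 Polycomb repressive complex 1 genes and 3 of 15 MLL and COMPASS genes. It held for 1 of 9 CTCF and cohesin genes, 1 of 8 flanking and caudal genes, 0 of 9 retinoic acid genes and 0 of 3 kidney genes. RBBP4 averaged 30.8 ± 0.702 FPKM in Y483E and 31.3 ± 1.75 FPKM in Y483F, and PHF19, an accessory subunit, 8.34 ± 0.297 FPKM in Y483E and 7.51 ± 0.264 FPKM in Y483F (limma adjusted p = 0.363). Of the Polycomb repressive complex 1 genes, 16 of 17 were tested, 6 higher and 10 lower (5 and 11 in edgeR, 7 and 9 after quantile normalization), led in level by RING1 at 37.4 ± 0.0325 FPKM in Y483E and 37.3 ± 1.64 FPKM in Y483F and CBX6 at 33.2 ± 0.775 FPKM in Y483E and 35.1 ± 0.264 FPKM in Y483F. The lowest adjusted p in that list was 0.447, for CBX6, and PCGF6 and PHC3 had 0.511 and 0.587.

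Of the MLL and COMPASS genes, which write or remove histone methylation at active genes, all 15 were tested, 8 higher and 7 lower. ASH2L, a core subunit, had 10.5 FPKM in each Y483E library and 8.86, 9.16 and 9.35 FPKM in Y483F (log2 fold change 0.18, limma adjusted p = 0.262). KDM6A, a demethylase of the Polycomb mark, had 8.81, 8.52 and 8.87 FPKM in Y483E and 7.57, 6.98 and 8.15 FPKM in Y483F (adjusted p = 0.333). SETD1A, a methyltransferase, had 24.4, 22.3 and 22.2 FPKM in Y483E and 24.7, 27.7 and 25.8 FPKM in Y483F (adjusted p = 0.338). These were the 3 of 15 members whose lines did not overlap, against 17.1% of all genes tested. WDR5 and PSIP1 were the most abundant members, WDR5 at 52.8 ± 0.604 FPKM in Y483E and 53.1 ± 1.67 FPKM in Y483F and PSIP1 at 35.8 ± 1.56 FPKM in Y483E and 34.6 ± 1.87 FPKM in Y483F.

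All 9 CTCF and cohesin genes, which fold chromatin into loops, were tested, and in limma 9 had higher values in Y483E, with a median log2 fold change of 0.03, while in edgeR 9 were higher without TMM scaling and 7 were higher and 2 lower with it, as after quantile normalization in limma. SMC1A had 99.3, 97.1 and 100.1 FPKM in Y483E and 93.0, 87.4 and 91.1 FPKM in Y483F (limma adjusted p = 0.333), SMC3 averaged 62 ± 2.23 FPKM in Y483E and 59.5 ± 1.05 FPKM in Y483F, and MAZ 59.1 ± 1.36 FPKM in Y483E and 55.9 ± 2.46 FPKM in Y483F. Of the 9 tested genes of retinoic acid signalling, which switches on HOX genes in the embryo, 4 were higher and 5 lower (3 and 6 in edgeR, 5 and 4 after quantile normalization). CRABP2, a carrier of retinoic acid, averaged 41.1 ± 5.64 FPKM in Y483E and 43.8 ± 2.55 FPKM in Y483F, and ALDH1A2, which makes it, 18.5 ± 0.446 FPKM in Y483E and 18.5 ± 1.43 FPKM in Y483F. DHRS3 had 3.72, 7.53 and 6.20 FPKM in Y483E and 3.60, 4.61 and 5.26 FPKM in Y483F, and RARB, a receptor, 1.48, 2.94 and 2.08 FPKM in Y483E and 1.17, 1.67 and 1.81 FPKM in Y483F, with limma adjusted p-values of 0.628 and 0.532. RDH10 averaged 5.99 ± 0.294 FPKM in Y483E and 6.39 ± 0.224 FPKM in Y483F.

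Of the genes that flank the clusters and the caudal genes, which regulate HOX genes in the embryo, 8 were tested, 7 higher and 1 lower. MTX2 beside HOXD averaged 23.4 ± 0.427 FPKM in Y483E and 22.8 ± 1.69 FPKM in Y483F, CBX5 near HOXC 13 ± 0.286 FPKM in Y483E and 12.5 ± 1.48 FPKM in Y483F, and SKAP2 beside HOXA 12.3 ± 0.114 FPKM in Y483E and 11.4 ± 0.963 FPKM in Y483F. SNX10 and CALCOCO1 had limma adjusted p-values of 0.447 and 0.715. EVX1 and EVX2, homeobox genes at the ends of the HOXA and HOXD clusters, stayed under 0.2 FPKM, below the HOXA13 and HOXD13 genes beside them in every library. CDX2, a caudal gene, averaged 5.60 ± 0.640 FPKM in Y483E and 5.42 ± 0.587 FPKM in Y483F, while CDX1 had reads in 1 library and CDX4 in none. Among kidney genes that act with or below the paralogs numbered 11 in mouse, SIX2 averaged 2.96 ± 0.172 FPKM in Y483E and 2.76 ± 0.163 FPKM in Y483F and GDNF 1.00 ± 0.205 FPKM in Y483E and 1.04 ± 0.206 FPKM in Y483F.

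In the libraries numbered 4 and 5, 14 of 88 members of the 8 lists passed edgeR, against 15.0% of all genes. DOT1L, KMT2B, SETD1A and EZH1 were lower in Y483E, and the higher ones included SKAP2, CBX5, RBBP7, PCGF6, ASH2L, PSIP1, SMC1A, DHRS3 and RARB. DOT1L, a histone methyltransferase recruited by MLL fusion proteins at HOXA genes, had 13 and 13.1 FPKM in those Y483E libraries and 16.8 and 16.4 FPKM in those Y483F libraries, against 12.9 FPKM in Y483E and 12.5 FPKM in Y483F in replicates 1.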

How the data were processed

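RNA-seq of 6 libraries was analysed from the deposited tables. The submitters' processing notes name featureCounts 1.5.0-p3, HISAT2 2.0.5, DESeq, DESeq2 and StringTie 1.3.3b, without their roles. The authors' build is not named in the labels or headers. The coordinates and gene lengths of all 39 HOX genes equal those of GENCODE 29 on GRCh38. The deposited FPKM values cover 58735 genes. The authors' comparison table holds 1652 genes with raw read counts, a signal made by the authors from counts and 1 size factor per library, log2 fold changes and p-values, per the file headers.

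The library total behind the FPKM values was not given. It was taken as the median total implied by the authors' deposited counts and FPKM values, and differs from the sums of recovered reads given above as library totals. FPKM multiplied by gene length and this implied total gave whole reads for 100.0% of values above 0, within 0.01 reads. These equalled the authors' deposited counts for all 1652 genes, the counts from which the totals were derived. limma 3.58.1 (trend) on log2(FPKM + 1) for genes averaging 1 FPKM or more was the main test, two-sided, with Benjamini-Hochberg adjustment over all genes tested at 0.05. edgeR 4.0.16 and DESeq2 1.42.0 were run on the recovered reads in R 4.3.3, and the scripts were tested on simulated data.

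Members at 1 FPKM or more are named with each library's value, the others with a mean. Any HOX gene called under an alternative is named, and from each of 8 lists the 2 most abundant and up to 3 with the smallest p. DOT1L, KMT2B and other list members that edgeR called in libraries 4 and 5 were named after their values were seen, as were MEIS1, CDX2, EVX1 and EVX2. The members and lists were chosen with earlier results of these data known. Some genes and sequences are not reported here and are left out of the figures.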

Additional observations from a re-analysis of the deposited data

Results flagged for a closer look

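The difference between the lines was compared between the libraries numbered 1 and those numbered 4 and 5, a comparison chosen after the data were seen. In edgeR's quasi-likelihood test of that difference, 368 of 15992 genes (2.3%) had an adjusted p under 0.05, and 2 of 35 HOX genes were among them. For HOXD9, the log2 fold change of Y483E over Y483F in the libraries numbered 1 minus that in the libraries numbered 4 and 5 was 0.9495 (adjusted p = 0.0125). HOXD9 had 12.6 FPKM in Y483E replicate 1 and 9.49 FPKM in Y483F replicate 1, whereas replicates 2 and 3 had 10.7 and 8.62 FPKM in Y483E and 14.4 and 13.7 FPKM in Y483F. For HOXB9 the same difference was -0.3466 (adjusted p = 0.0236), with 53.8 FPKM in Y483E replicate 1 and 55.8 FPKM in Y483F replicate 1, against 63.7 and 67.5 FPKM in Y483E and 51.7 and 54.1 FPKM in Y483F for replicates 2 and 3. Only 1 library a line carries the number 1, so each of these values rests on those 2 libraries, and the spread in the test comes only from the libraries numbered 4 and 5. In limma, 8 of 12833 genes (0.0623%) passed for that difference and no HOX gene did, and 10 of 32 had an unadjusted p under 0.05, against 15.9% of all genes. The adjusted p in limma was 0.209 for HOXD9 and 0.226 for HOXB9.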

How the results depend on the processing

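The count of 0 HOX genes called in limma held under other pseudocounts, filters and scalings, a replicate block, a batch term for the library number and leaving out any library. It was 7 with array weights and 3 in the libraries numbered 4 and 5. On recovered reads HOX calls numbered 0 with edgeR, with edgeR without TMM, with a replicate block and with DESeq2, but 2 without a filter (HOXB3 and HOXB9, of 2.15% of all genes called) and 6 in the libraries numbered 4 and 5. Leaving out each library in edgeR gave 0 to 4 HOX calls. Calls over all genes were 0 in limma, 1888 with array weights and 733 in the libraries numbered 4 and 5, and, in edgeR, 7, 14 without TMM, 671 without a filter, 6 with the replicate block, 2454 in the libraries numbered 4 and 5 and 155 with a term for the library number. DESeq2 called 143 genes (1.27%), and edgeR without each library called 1 to 1000 (174 without Y483E replicate 1). The median HOX log2 fold change was -0.04875 in edgeR without Y483F replicate 1, against 0.0093 for all genes. Above 5 FPKM, 9 of 23 HOX genes were higher in Y483E, against 56.4% of all genes. In the libraries numbered 4 and 5, list members called numbered 5 with limma, against 5.71% of all genes, and 14 of 88 with edgeR, against 15.0% of all genes. By reads instead of FPKM the clusters held 36.74% (HOXA), 17.1% (HOXC) and 15.82% (HOXD). For HOXB3, HOXB4, HOXB5, HOXB9, HOXC9, HOXC10, HOXD8, HOXD9 and HOXD10, no fold change turned its sign under these settings. They are the genes called in some setting, and every setting kept libraries numbered 4 or 5. In replicates 1 alone the sign was opposite for HOXB3 (0.004), HOXB4 (0.13), HOXB9 (-0.05), HOXD8 (-0.08), HOXD9 (0.37) and HOXD10 (0.05), and the same for HOXB5, HOXC9 and HOXC10. Other HOX genes did turn, such as HOXA3, at 0.05 in limma over all 6 libraries and -0.02 in those numbered 4 and 5. The causes were not tested.

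Deviations from the line mean correlated at 0.056, 0.139 and -0.095 between libraries with the same number. Between libraries with different numbers the range was -0.263 to 0.206. These values cannot tell whether libraries with the same number shared a culture or a batch. The replicate block made no HOX call. The HOX genes under 1 FPKM rest on 1 to 112 reads, too few to show small differences.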
